A study of Homo sapiens with 12 samples.

Results

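The 58 genes described here encode the machinery that holds sister chromatids together and attaches them to the spindle. They were taken as a list of gene symbols, of which 57 were found by symbol among the 26475 symbols of the count data, and WAPAL was found under its current symbol WAPL. They were placed in 5 groups by the complex they belong to: 15 genes of the CENP-A network, 13 of the KMN network and the SKA complex, 12 of the spindle checkpoint and the fibrous corona, 4 of the chromosomal passenger complex, and 14 of cohesin and its regulators. The list was drawn up by function, with earlier results of these data known, and no measured value entered the rule. Gene symbols are given as the data have them, where CASC5 is the gene now called KNL1, SGOL1 is SGO1 and SGOL2 is SGO2.

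The centromere is marked by nucleosomes that hold the histone variant CENP-A, on which a constitutive network of centromere proteins is built. During mitosis this network recruits the KMN network, whose NDC80 complex binds the ends of microtubules, and the SKA complex, which helps the grip on a shrinking microtubule. Kinetochores without a microtubule make an inhibitor of CDC20, the activator of the anaphase-promoting complex, and so hold the cell before anaphase. Cohesin rings keep the sister chromatids paired until separase cuts them, and many of these genes, unlike those of the cohesin ring itself, are transcribed mainly late in the cell cycle.

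RNA was sequenced from established human ovarian cancer lines. PA-1 comes from a teratocarcinoma of the ovary, SK-OV3 from an adenocarcinoma, and each tumour type was represented by 1 line. Cells of both lines received the vehicle DMSO or 5 µM BAY-850, which occupies the bromodomain of the chromatin protein ATAD2, and were collected after 48 h. The design gives 4 groups of 3 replicates, which are PA-1 with DMSO, PA-1 with BAY-850, SK-OV3 with DMSO and SK-OV3 with BAY-850. The study went on to combine BAY-850 with an inhibitor of CENPE, the kinetochore motor.

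Library totals were between 34544505 and 51840233 counts, and all 58 genes passed edgeR's filter on low counts in each line. Replicate 3 of SK-OV3 with BAY-850 had the highest total but only 15629 genes with a count, against 17425 to 18414 in the others. Ribosomal RNA genes held between 7.94% and 16.9% of each library. Markers of the pluripotent state (POU5F1, SOX2, LIN28B, DPPA4, L1TD1 and SALL4) summed to 663 to 812 CPM in PA-1, where 5 of 6 were above 1 CPM, and to 6.38 to 10.3 CPM in SK-OV3, where 1 of 6 was. The epithelial markers KRT7, KRT8, KRT18, KRT19, EPCAM, ERBB2 and PAX8 were all above 1 CPM in SK-OV3, and 4 of 7 were in PA-1. Their sum moved with treatment, from 4349 to 4648 CPM with DMSO to 3200.0 to 3681 CPM with BAY-850 in SK-OV3, and from 923 to 980 CPM to 1006 to 1054 CPM in PA-1. The summed fibroblast markers COL1A1, DCN, LUM and PDGFRA also moved, from 433 to 542 CPM with DMSO to 571 to 620 CPM with BAY-850 in PA-1 and from 169 to 179 CPM to 83.5 to 111 CPM in SK-OV3, with 2 of the 4 genes above 1 CPM in each group and DCN at or near 0. Single genes weighed heavily in these sums, here as means with DMSO and with BAY-850, scaled within each line. ERBB2 went from 2463 to 1831 CPM in SK-OV3, where the keratins and EPCAM were also lower and PAX8 went from 227 to 333 CPM. COL1A1 went from 451 to 568 CPM in PA-1, where PDGFRA went from 7.6 to 7.1 CPM. In SK-OV3 COL1A1 went from 171 to 100 CPM. The part of these markers in the results below was not tested.

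Promoter sequences are shown for 5 of the 58 genes. RefSeq (GRCh38.p14) gave promoter windows of 300 bases, 250 before to 50 after a transcription start, for 49 of the 58 genes, with 59 starts among them. BIRC5, BUB3, CASC5, CENPH, CENPL, CENPM, KNTC1, RAD21 and TTK were not matched. Cell cycle promoters of the G2 and M phases commonly hold a CHR element (TTTGAA), bound by the MuvB complexes, beside CCAAT boxes (CCAAT), bound by NF-Y. The windows were searched on both strands for these and for an E2F site spelled TTCCCGC or, in its other forms searched here, TTCGCGC or the less common TTGCCGC or finally the form TTGGCGC. The motifs can overlap, as the CHR element and a CCAAT box do in the CDCA8 window. The first 280 bases of 5 windows follow, 5′ to 3′ on the strand of the gene, with every match in capitals. CDC20, CDCA8 and PLK1 fell in SK-OV3 and differed between the lines, SGOL2 fell in both lines, and CENPE is the gene whose inhibitor the study used.
CDC20: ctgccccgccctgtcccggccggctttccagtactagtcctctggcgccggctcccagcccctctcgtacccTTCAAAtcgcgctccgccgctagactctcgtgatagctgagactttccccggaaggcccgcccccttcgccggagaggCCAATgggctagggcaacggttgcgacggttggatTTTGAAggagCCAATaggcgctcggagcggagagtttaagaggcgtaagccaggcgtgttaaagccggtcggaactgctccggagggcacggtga
CDCA8: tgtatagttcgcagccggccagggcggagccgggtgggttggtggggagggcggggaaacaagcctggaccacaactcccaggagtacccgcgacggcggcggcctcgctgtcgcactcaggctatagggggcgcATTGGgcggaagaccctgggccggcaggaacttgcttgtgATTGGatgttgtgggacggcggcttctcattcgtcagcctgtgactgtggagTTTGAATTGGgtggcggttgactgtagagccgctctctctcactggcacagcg
PLK1: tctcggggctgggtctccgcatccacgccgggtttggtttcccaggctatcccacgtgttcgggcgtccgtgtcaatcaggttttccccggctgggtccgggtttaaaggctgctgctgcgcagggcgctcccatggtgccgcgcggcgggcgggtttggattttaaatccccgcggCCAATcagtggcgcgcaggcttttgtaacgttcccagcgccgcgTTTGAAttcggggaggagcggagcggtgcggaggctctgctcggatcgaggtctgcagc
SGOL2: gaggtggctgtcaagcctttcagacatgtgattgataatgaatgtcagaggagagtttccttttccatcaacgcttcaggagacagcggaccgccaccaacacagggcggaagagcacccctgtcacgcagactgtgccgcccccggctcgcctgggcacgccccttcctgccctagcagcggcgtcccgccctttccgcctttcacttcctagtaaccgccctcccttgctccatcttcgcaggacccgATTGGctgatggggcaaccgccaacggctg
CENPE: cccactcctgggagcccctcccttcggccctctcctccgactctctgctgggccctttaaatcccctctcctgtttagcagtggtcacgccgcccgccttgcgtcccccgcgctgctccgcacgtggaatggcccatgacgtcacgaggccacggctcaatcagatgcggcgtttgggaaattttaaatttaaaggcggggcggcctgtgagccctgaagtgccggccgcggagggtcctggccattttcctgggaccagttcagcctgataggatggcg

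The CDC20 window, chr1:43358731-43359010 (plus strand), held 2 CHR matches and 2 CCAAT boxes. The CDCA8 window, chr1:37692266-37692545 (plus strand), held 1 CHR match and 3 CCAAT boxes, and that of PLK1, chr16:23678639-23678918 (plus strand), held 1 of each. The SGOL2 window, chr2:200525892-200526171 (plus strand), is the first of 2 starts and held a CCAAT box at the start site and no CHR match. The CENPE window, chr4:103198314-103198593 (minus strand), held none of the 3 motifs. Among the other matched genes whose response differed between the lines, ZWINT, CENPF and ESPL1 held both a CHR match and a CCAAT box. PMF1 held no CHR match, CENPO and BUB1B held no CCAAT box, and SMC1A held neither. Over all 59 windows of the members, 23 (39.0%) held a CHR match, 40 (67.8%) a CCAAT box and 21 (35.6%) an E2F site, where the 22199 windows of protein-coding genes did so in 12.4%, 34.7% and 16.1%. Both a CHR match and a CCAAT box were found in 16 member windows (27.1%) and in 4.97% of those of protein-coding genes. Of the 22 windows of members that fell in SK-OV3, 13 (59.1%) held a CHR match, and of the other 37 windows 10 (27.0%) did. For the CCAAT box these shares were 72.7% and 64.9%, and for the E2F site 36.4% and 35.1%. Of the 7 windows of members that fell in PA-1, 3 (42.9%) held a CHR match. These letters were matched with no test, and several starts belong to 1 gene.

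With DMSO, the genes spanned a wide range of levels, given here as CPM per kb of exon (mean ± SD, n = 3), since CPM alone favours long genes. In PA-1 they ran from CENPP, a subunit of the constitutive network, at 0.992 ± 0.124, to CDC20 at 70.1 ± 4.79. CDC20 was also highest in SK-OV3, at 107 ± 6.68, and CENPP lowest, at 0.692 ± 0.101. The KMN scaffold CASC5 was low in both lines, at 1.54 ± 0.136 in PA-1 and 3.11 ± 0.508 in SK-OV3. CENPE stood at 4.31 ± 0.311 in PA-1 and 3.14 ± 0.466 in SK-OV3. The cohesin kleisin RAD21 was among the highest, at 52.3 ± 3.01 and 44.6 ± 3.77. Exon lengths come from the union of annotated exons, so genes with many unused exons read lower on this scale.

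**Figure D1:**
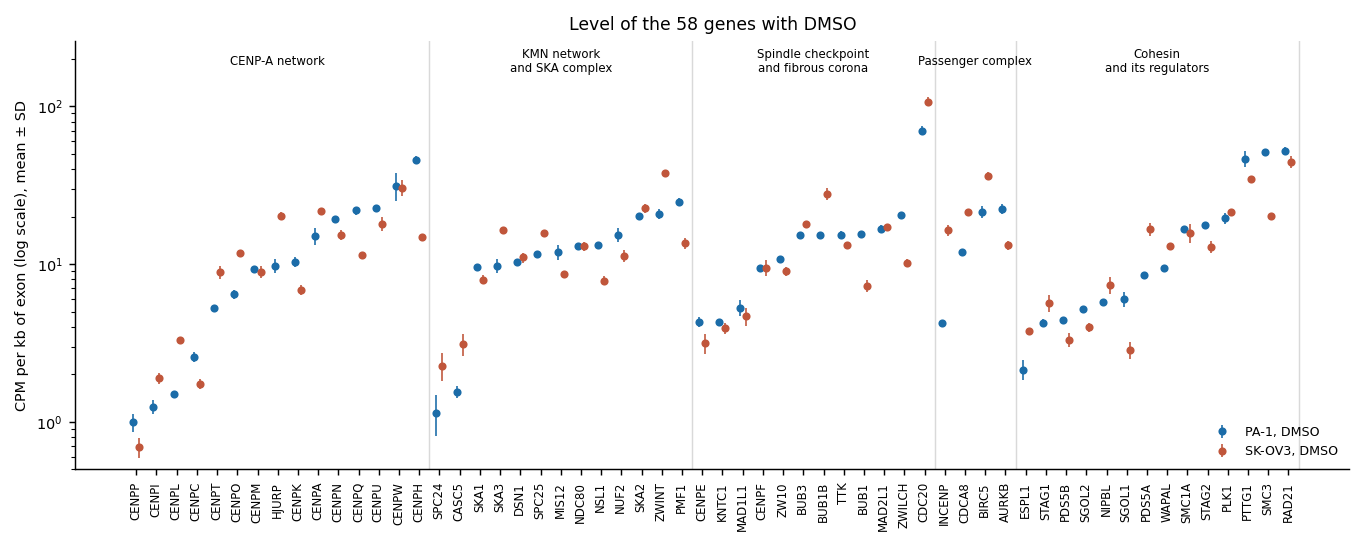
CPM per kb of exon (log axis) of the 58 genes in DMSO-treated PA-1 (blue) and SK-OV3 (red) cells, by group, with points at the mean and bars of 1 SD over 3 libraries. CDC20 is the highest gene in both lines, and INCENP, CENPH and SMC3 stand far apart between them.

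Between the lines with DMSO, 24 of the 58 members were lower in SK-OV3 than in PA-1 and 22 were higher (adjusted p under 0.05). Of the 16830 genes tested across the 12 libraries, 38.1% were lower and 38.3% higher, so the members' shares were near those of all genes. The largest difference was that of INCENP, the scaffold of the passenger complex, which was 3.90-fold higher in SK-OV3, with a log2 difference (SK-OV3 minus PA-1) of 1.96 (SE 0.115, adjusted p = 2.28e-10). AURKB, the kinase it binds, was lower in SK-OV3, with a difference of -0.77 (SE 0.0822, adjusted p = 3.51e-07), while their partners BIRC5 and CDCA8 were higher, with 0.75 and 0.84. The 4 members of 1 complex thus stood at different ratios in the lines. CENPH, of the constitutive network, was lower in SK-OV3 (log2 difference -1.61, SE 0.0626, adjusted p = 1.3e-12), whereas CENPL was higher (log2 difference 1.14, SE 0.116, adjusted p = 2.1e-07). In the cohesin ring SMC3 was lower (log2 difference -1.36, SE 0.0628, adjusted p = 1.16e-11), and for its partner SMC1A the difference was -0.078 (SE 0.102, adjusted p = 0.501). The checkpoint kinase BUB1 was lower (-1.09) and its relative BUB1B higher (0.86). SGOL1, the shugoshin that protects centromeric cohesin, was lower (-1.07), and HJURP, the chaperone that loads CENP-A, was higher (1.06). SGOL1 shares 17.7% of its exon bases with SGOL1-AS1 on the other strand, and CENPP 38.0% with IPPK, so their counts are uncertain to that extent where strand was not used. With DMSO, SGOL1-AS1 had 0 CPM in both lines, and IPPK had 16.3 CPM in PA-1 and 25.3 CPM in SK-OV3. The DMSO libraries compared here are also the controls of the responses that follow.

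After BAY-850, 7 members fell in PA-1 while 21 did in SK-OV3, and by edgeR's quasi-likelihood test 0 rose in either line. A member is called changed at an adjusted p under 0.05. The 7 members that fell in PA-1 were CENPC, CENPQ, NDC80, NUF2, SKA2, TTK and SGOL2. Among all 15212 genes tested in PA-1, 2.48% fell and 4.65% rose. Among the 15348 genes tested in SK-OV3, 9.56% fell and 10.8% rose. The 21 members that fell there were HJURP, CENPN, CENPO and CENPU of the CENP-A network, DSN1, PMF1, CASC5, ZWINT and SKA3 of the KMN network and SKA complex, CENPF, KNTC1, BUB1B, MAD2L1 and CDC20 of the checkpoint and corona, BIRC5 and CDCA8 of the passenger complex, and SMC1A, SGOL2, ESPL1, PTTG1 and PLK1 of cohesin and its regulators. SGOL2 was the only member called in both lines, and 31 were called in neither. In bulk RNA, fewer cells in mitosis and less RNA of these genes per cell cannot be told apart.

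The median log2 ratio of BAY-850 over DMSO (log2FC) of the 58 members was -0.099 in PA-1, where that of all genes tested was -0.0019, and -0.25 in SK-OV3, where it was -0.0091. By sign alone 42 members were lower in PA-1, 46 in SK-OV3 and 34 in both. The members' log2FC ran from -0.42 to 0.37 in PA-1 and from -0.79 to 0.15 in SK-OV3. In PA-1, the replicates of the 2 treatments lay wholly apart for 21 members, 18 of them lower with BAY-850 and 3 higher, beside 13.1% and 14.4% of all genes. In SK-OV3, the same held for 27 members that were lower and 0 that were higher, beside 19.5% and 19.4% of all genes. At an unadjusted p under 0.05, 17 members were lower and 6 higher in PA-1, beside 1693 and 1925 of all 15212 genes. In SK-OV3 28 members were lower and 0 higher, beside 2484 and 2632 of all 15348 genes. For higher members DESeq2 made 2 calls in PA-1 (ESPL1 and INCENP) and 0 in SK-OV3, and limma-voom made 0 in either. Without the filter on low counts edgeR called ESPL1, INCENP and SMC1A higher in PA-1. With at least 10 counts in every library it called ESPL1 and INCENP higher there.

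By library, the median member of the BAY-850 replicates 1 to 3 stood -0.069, -0.10 and -0.11 from the DMSO mean (log2) in PA-1, and those of SK-OV3 at -0.22, -0.20 and -0.16. The DMSO replicates themselves stood between -0.023 and 0.030 in PA-1 and between -0.053 and 0.020 in SK-OV3. All 6 BAY-850 libraries therefore lay below the DMSO libraries of their line by this measure. Each DMSO library is part of the mean it is measured against, which draws its value toward 0. These levels were not corrected for GC content.

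**Figure D2:**
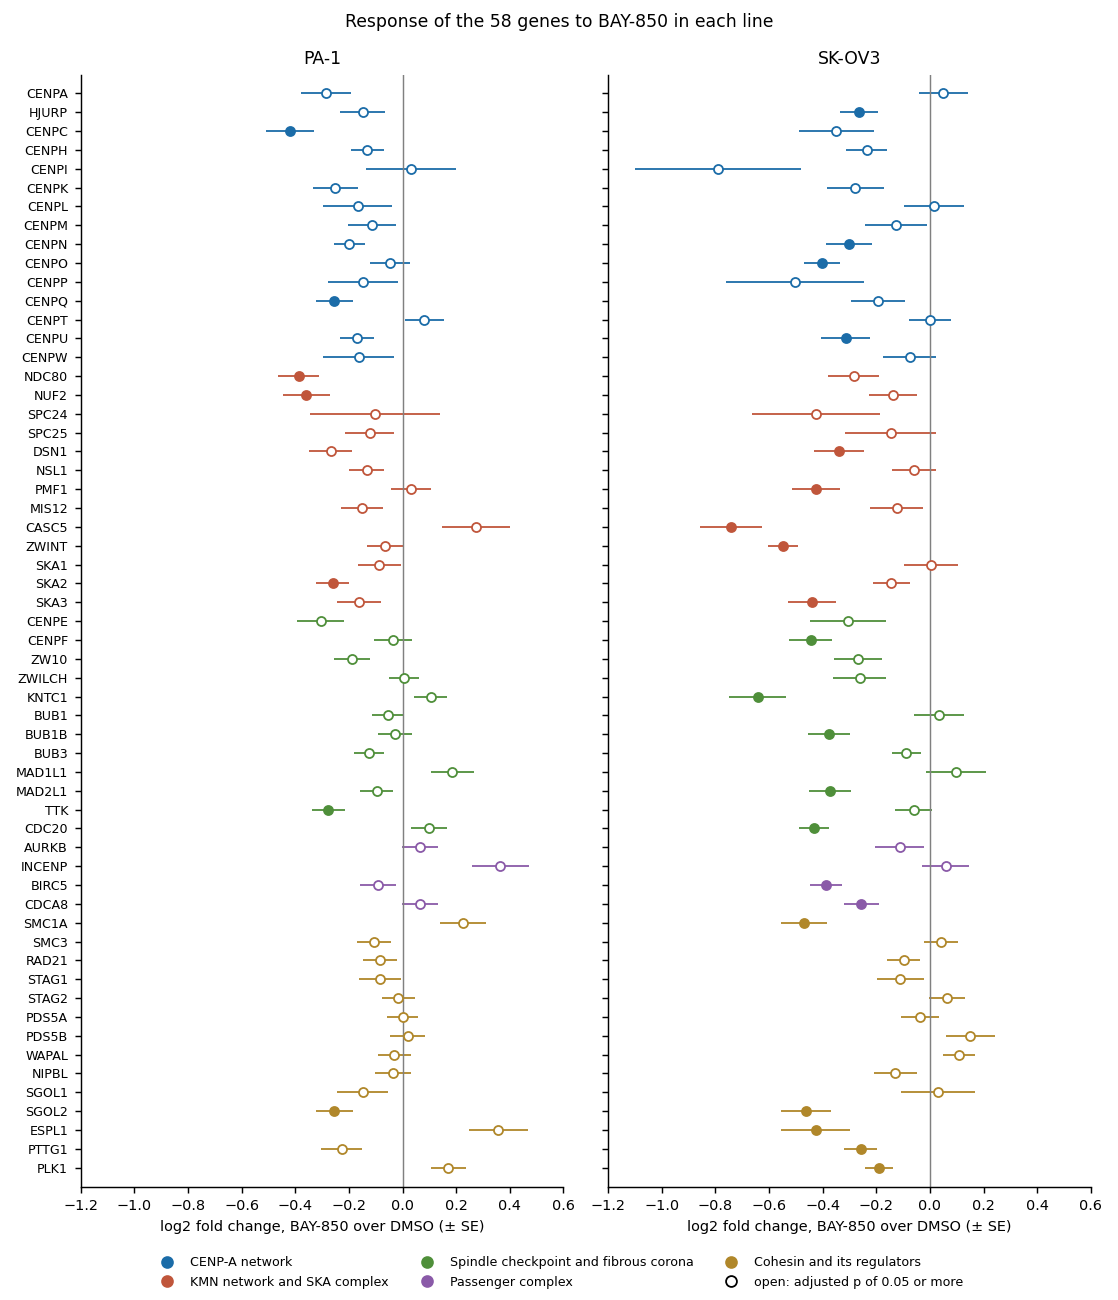
Log2 fold change (BAY-850 over DMSO) of each of the 58 genes in PA-1 (left) and SK-OV3 (right), coloured by group. Bars are 1 SE derived from edgeR's F statistic, and filled points mark an adjusted p under 0.05. The 7 filled points in PA-1 and the 21 in SK-OV3 all lie left of 0, and the points of the cohesin ring genes from SMC3 to NIPBL lie close to it in both lines.

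In the CENP-A network, 2 of 15 genes fell in PA-1 (median log2FC -0.16) and 4 in SK-OV3 (median -0.27), and 13 and 12 were negative. The gene with the smallest p in PA-1 was CENPC (chr4:67468748-67545606 in GRCh38), which ties the CENP-A nucleosome to the outer kinetochore. It was measured at 21.1, 23.6 and 20.5 CPM with DMSO and 17.0, 15.3 and 16.6 CPM after BAY-850 in PA-1, which do not overlap. Its log2FC was -0.42 (SE 0.0901, adjusted p = 0.0125). In SK-OV3 it was measured at 14.1, 16.3 and 15.6 CPM with DMSO and 12.1, 9.89 and 14.1 CPM after BAY-850, with a log2FC of -0.35 (SE 0.140, adjusted p = 0.104). In SK-OV3 the smallest p was that of CENPO (chr2:24793136-24822376), a subunit of the inner kinetochore that works with CENPP, CENPQ and CENPU. It stood at 69.2, 65.2 and 63.7 CPM with DMSO and 53.1, 48.8 and 48.1 CPM after BAY-850 (log2FC -0.40, SE 0.0677, adjusted p = 0.00170). In PA-1 the CENPO replicates overlapped, at 32.4, 34.0 and 37.4 CPM and 31.8, 35.5 and 33.1 CPM (log2FC -0.048, SE 0.0749, adjusted p = 0.754). HJURP, CENPN and CENPU fell in SK-OV3, with log2FC of -0.27, -0.30 and -0.31, and CENPQ fell in PA-1, with -0.25. For CENPA itself the log2FC was -0.28 (SE 0.0920, adjusted p = 0.0749) in PA-1, and in SK-OV3 it was 0.05 (SE 0.0901, adjusted p = 0.747). Exons of CENPO overlap those of ADCY3 on the other strand over 27.0% of their length, and for CENPN and CENPU 12.8% and 11.7% overlap CMC2 and PRIMPOL. The strand setting of the counting is not given in the sources used here, so the counts of these genes are uncertain to that extent.

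In the KMN network and the SKA complex, 3 of 13 genes fell in PA-1 (median log2FC -0.13) and 5 in SK-OV3 (median -0.29). The genes that fell in PA-1 were NDC80 and NUF2, which form the microtubule-binding head of the NDC80 complex, and SKA2. NDC80 (chr18:2571511-2616635) was measured at 47.6, 45.8 and 43.8 CPM with DMSO and 37.9, 31.2 and 35.8 CPM after BAY-850 in PA-1, and its log2FC was -0.39 (SE 0.0765, adjusted p = 0.00796). In SK-OV3 it went from 47.8, 50.5 and 44.4 CPM to 34.0, 38.9 and 44.0 CPM, which also do not overlap, with a log2FC of -0.28 (SE 0.0960, adjusted p = 0.0579). For NUF2 and SKA2 the log2FC in PA-1 was -0.36 and -0.26. The remaining subunits of that complex, SPC24 and SPC25, stood at log2FC -0.10 and -0.12 in PA-1 and at -0.43 and -0.15 in SK-OV3, none of them called. In SK-OV3 the smallest p was that of ZWINT (chr10:56357228-56361275), which binds the scaffold CASC5 and brings in the ROD-ZW10 complex. ZWINT stood at 92.0, 92.8 and 88.8 CPM with DMSO and 62.5, 63.9 and 60.8 CPM after BAY-850 (log2FC -0.55, SE 0.0573, adjusted p = 6.22e-05). The groups lay far apart in SK-OV3 and overlapped in PA-1, at 51.2, 49.7 and 44.3 CPM and 47.3, 44.4 and 47.1 CPM.

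CASC5 (chr15:40594020-40664342), the KMN subunit that docks the BUB kinases, had the largest fold change of the called members in SK-OV3. It was measured at 26.5, 34.7 and 36.2 CPM with DMSO and 18.8, 20.4 and 19.1 CPM after BAY-850 in SK-OV3, and its log2FC was -0.74 (SE 0.116, adjusted p = 0.00106). In PA-1 it stood at 13.9, 16.4 and 16.1 CPM with DMSO and 20.9, 20.6 and 14.6 CPM after BAY-850. There 2 of 3 BAY-850 libraries were above all DMSO libraries, and the log2FC was 0.27 (SE 0.127, adjusted p = 0.208). PMF1, a subunit of the MIS12 complex, stood at 38.0, 32.6 and 34.1 CPM with DMSO and 26.8, 27.2 and 24.0 CPM after BAY-850 in SK-OV3, a log2FC of -0.43 (SE 0.0895, adjusted p = 0.00631). In PA-1 it was at 64.3, 57.1 and 62.1 CPM and 58.7, 58.9 and 69.8 CPM (log2FC 0.031, SE 0.0756, adjusted p = 0.8496). PMF1 shares 23.3% of its exon bases with the readthrough gene PMF1-BGLAP on the same strand, whose counts rose in SK-OV3 (log2FC 0.77, adjusted p = 0.0197) from 4.10 CPM, so the division of reads between them is uncertain. DSN1, its partner in the MIS12 complex, and SKA3 also fell in SK-OV3 (log2FC -0.34 and -0.44).

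In the spindle checkpoint and the fibrous corona, 1 of 12 genes fell in PA-1 (median log2FC -0.045) and 5 in SK-OV3 (median -0.29). TTK (chr6:80003887-80042527), the kinase that starts the checkpoint signal, was the one that fell in PA-1. It stood at 66.9, 72.9 and 66.1 CPM with DMSO and 58.7, 56.2 and 55.1 CPM after BAY-850 (log2FC -0.28, SE 0.0623, adjusted p = 0.0160). In SK-OV3 it was at 61.1, 62.3 and 61.3 CPM and 60.8, 54.0 and 62.3 CPM, which overlap, with a log2FC of -0.061 (SE 0.0691, adjusted p = 0.587). CDC20 (chr1:43358955-43363203), the target that the checkpoint holds inactive, had the smallest p of this group in SK-OV3. It was measured at 239, 213 and 214 CPM with DMSO and 166, 164 and 164 CPM after BAY-850 (log2FC -0.43, SE 0.0564, adjusted p = 0.000292). Its replicates in PA-1 overlapped, at 136, 132 and 150.5 CPM and 139, 149 and 160.2 CPM (log2FC 0.098, SE 0.0672, adjusted p = 0.410).

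KNTC1 (also called ROD), which with ZW10 and ZWILCH brings dynein and checkpoint proteins to the kinetochore, stood at 41.8, 46.1 and 48.5 CPM with DMSO and 32.6, 30.3 and 24.6 CPM after BAY-850 in SK-OV3. Its log2FC was -0.64 (SE 0.106, adjusted p = 0.00153). In PA-1 the lowest BAY-850 library was level with the highest DMSO library, at 49.2, 47.7 and 46.5 CPM and 49.2, 53.2 and 51.8 CPM (log2FC 0.10, SE 0.0619, adjusted p = 0.333). BUB1B, a part of the inhibitor of CDC20, went from 114, 132 and 136 CPM to 91.2, 95.5 and 107 CPM in SK-OV3 (log2FC -0.38, SE 0.0793, adjusted p = 0.00637). In PA-1 BUB1B was at 64.2, 70.0 and 66.6 CPM and 67.5, 67.5 and 62.1 CPM, with a log2FC of -0.028. CENPF, a large protein of the corona, went from 98.2, 118 and 123 CPM to 81.6, 81.7 and 86.1 CPM in SK-OV3 (log2FC -0.44, SE 0.0801, adjusted p = 0.00263). In PA-1 CENPF was at 110.0, 107 and 104 CPM and 111, 109.6 and 92.6 CPM, with a log2FC of -0.035. MAD2L1, the core of the inhibitor, fell in SK-OV3 with a log2FC of -0.37. In PA-1 the log2FC of BUB1 was -0.056, of BUB3 -0.13 and of MAD1L1 0.19, and in SK-OV3 they were 0.034, -0.088 and 0.097, none of them called.

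CENPE (chr4:103105806-103198409), the plus-end-directed kinesin of the corona that carries chromosomes to the metaphase plate, was not called in either line by edgeR's test as used above. In PA-1 it stood at 37.9, 43.1 and 38.4 CPM with DMSO and 32.8, 35.8 and 27.96 CPM after BAY-850. All 3 BAY-850 libraries were below all DMSO libraries, and the log2FC was -0.31 (SE 0.0885, adjusted p = 0.0508), just outside the threshold. In SK-OV3 it stood at 25.1, 32.5 and 33.1 CPM with DMSO and 20.2, 23.9 and 29.2 CPM after BAY-850. Here the groups overlapped, because BAY-850 replicate 3 was above DMSO replicate 1, and the log2FC was -0.31 (SE 0.141, adjusted p = 0.154). No difference of the response between the lines was detected, at a log2 difference of -0.014 (SE 0.184, adjusted p = 0.998). Leaving out PA-1 BAY-850 replicate 2 gave -0.39 (adjusted p = 0.0452) in PA-1, and leaving out SK-OV3 BAY-850 replicate 3, the library with few genes, gave -0.45 (adjusted p = 0.0172) in SK-OV3. With each library's trend on GC content removed, the PA-1 value was -0.13 (adjusted p = 0.393). In PA-1 it was called by DESeq2 (adjusted p = 0.0196), by limma-voom (0.0482) and by edgeR under both other filters on low counts and with ribosomal RNA genes left out of the library size. Over all settings tried the adjusted p ran from 0.00644 to 0.393 in PA-1 and from 0.0172 to 0.425 in SK-OV3. By qRT-PCR and by immunoblotting, the paper reported significantly less CENPE RNA and protein in both lines after BAY-850. From its RNA-seq data the paper also described several centromere protein genes as lower in both lines. Its list of genes shared by the lines used a p under 0.05, with no adjustment stated in its text.

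**Figure D3:**
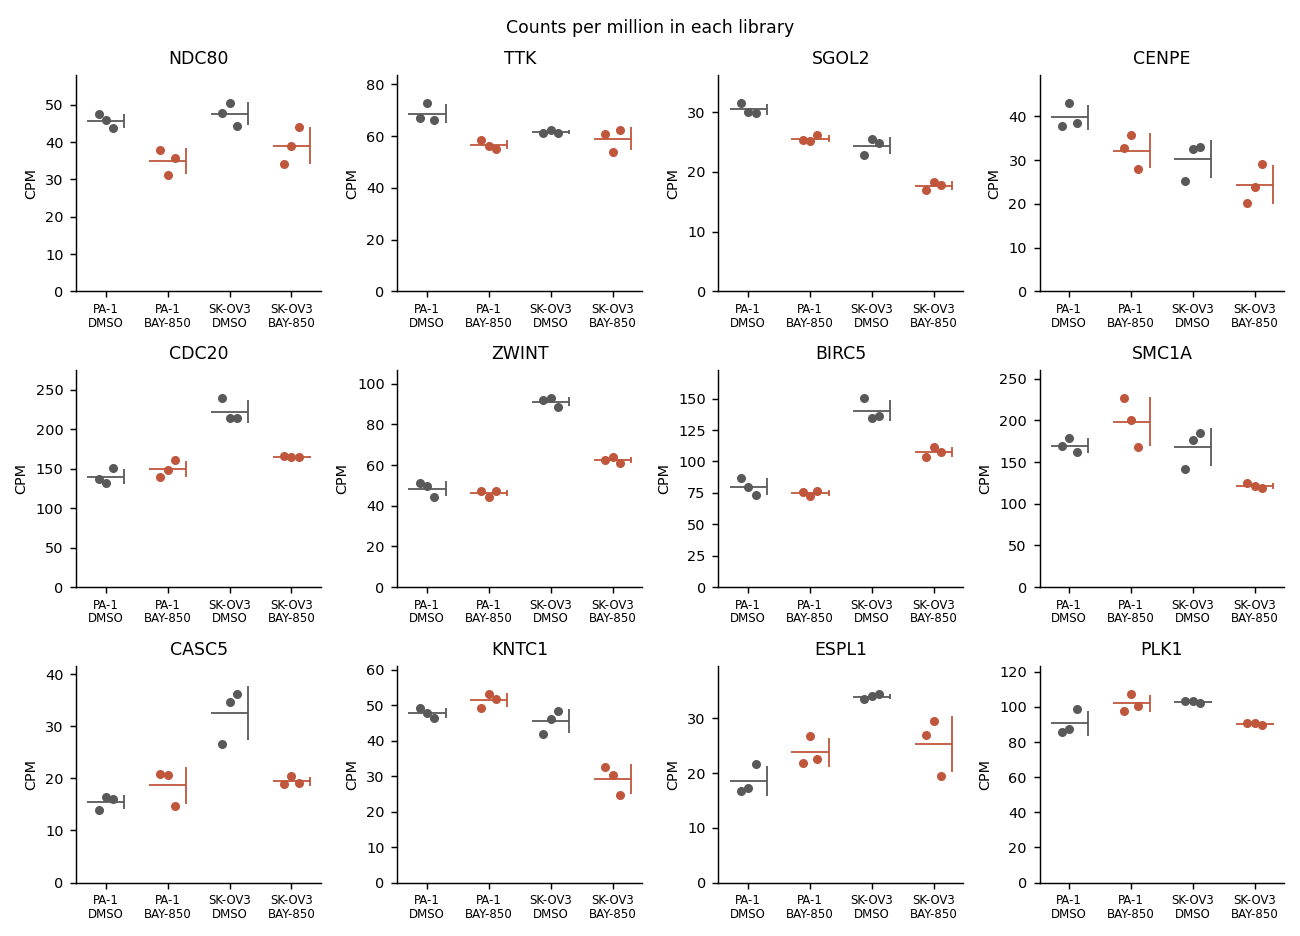
CPM of 12 of the genes in each library (points), with the mean (horizontal line) and 1 SD (vertical line) of the 3 libraries per group, DMSO in grey and BAY-850 in red. In SK-OV3 the BAY-850 points of SGOL2, CDC20, ZWINT, BIRC5, SMC1A, CASC5, KNTC1, ESPL1 and PLK1 all lie below the DMSO points, as do those of NDC80, and in PA-1 this holds for NDC80, TTK, SGOL2 and CENPE.

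In the chromosomal passenger complex, 0 of 4 genes were called in PA-1 by edgeR's test as used above, and BIRC5 and CDCA8 fell in SK-OV3. In PA-1, 1 gene, INCENP, had an unadjusted p under 0.05, and it was called higher by DESeq2 and not by limma-voom. By edgeR INCENP was called higher under both other filters on low counts and without PA-1 BAY-850 replicate 3. Its log2FC in PA-1 was 0.37 (SE 0.106, adjusted p = 0.0520). BIRC5 (chr17:78214186-78225636), known as survivin, which together with CDCA8 (borealin) places the complex on centromeres, stood at 150.3, 135 and 136 CPM with DMSO and 103, 112 and 108 CPM after BAY-850 in SK-OV3. The groups did not overlap, and the log2FC was -0.39 (SE 0.0606, adjusted p = 0.00108). In PA-1 they overlapped, at 86.8, 79.3 and 73.2 CPM and 75.9, 72.2 and 76.4 CPM (log2FC -0.092, SE 0.0673, adjusted p = 0.445). CDCA8 went from 54.5, 54.1 and 51.8 CPM to 46.0, 45.5 and 42.9 CPM in SK-OV3 (log2FC -0.26, SE 0.0658, adjusted p = 0.0181) and was at 27.9, 28.01 and 29.9 CPM and 29.98, 29.3 and 30.5 CPM in PA-1 (log2FC 0.065, SE 0.0685, adjusted p = 0.614). The kinase AURKB was not called, with a log2FC of 0.065 (PA-1) and -0.11 (SK-OV3).

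Among cohesin and its regulators, 1 of 14 genes fell in PA-1 and 5 in SK-OV3. The 9 genes for the ring, its release and its loading (SMC1A, SMC3, RAD21, STAG1, STAG2, PDS5A, PDS5B, WAPAL and NIPBL) had a median log2FC of -0.031 (PA-1) and -0.037 (SK-OV3). By edgeR, 0 of these 9 were called in PA-1, with 1 at an unadjusted p under 0.05 and 0 by DESeq2 or limma-voom, and SMC1A alone was called in SK-OV3. The 5 mitotic regulators SGOL1, SGOL2, ESPL1, PTTG1 and PLK1 had medians of -0.15 and -0.26, and all but SGOL1 fell in SK-OV3. SMC1A (chrX:53374149-53422728), a core subunit of the ring, stood at 142, 177 and 185 CPM with DMSO and 125, 121 and 118 CPM after BAY-850 in SK-OV3, a log2FC of -0.47 (SE 0.0859, adjusted p = 0.00286). In PA-1 it was at 169, 179 and 162 CPM with DMSO and 226, 201 and 169 CPM after BAY-850 (log2FC 0.23, SE 0.0852, adjusted p = 0.121). Its ring partners SMC3 and RAD21 were not called, with log2FC -0.11 and -0.083 in PA-1 and 0.042 and -0.098 in SK-OV3.

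SGOL2 (chr2:200510008-200583782), which shields centromeric cohesin and helps to bring MCAK to centromeres, was the one member that fell in both lines. In PA-1 it stood at 31.6, 30.1 and 29.8 CPM with DMSO and 25.3, 25.1 and 26.2 CPM after BAY-850. In SK-OV3 it stood at 22.8, 25.6 and 24.8 CPM with DMSO and 16.9, 18.4 and 17.8 CPM after BAY-850. Neither pair of groups overlapped. The log2FC was -0.26 (SE 0.0693, adjusted p = 0.0395) in PA-1, and in SK-OV3 it was -0.46 (SE 0.0924, adjusted p = 0.00475). The log2 difference between the responses was -0.22 (SE 0.110, adjusted p = 0.206). The PA-1 call was close to the threshold and ended under 11 of 18 other settings, with the log2FC going to -0.076 (adjusted p = 0.613) once the GC trend was removed, while the SK-OV3 call held under all 18.

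ESPL1, the separase that cuts cohesin, stood at 33.5, 34.0 and 34.5 CPM with DMSO and 26.9, 29.5 and 19.6 CPM after BAY-850 in SK-OV3 (log2FC -0.43, SE 0.129, adjusted p = 0.0375). In PA-1 it was at 16.7, 17.3 and 21.7 CPM and 21.8, 26.8 and 22.6 CPM, where the BAY-850 libraries were the higher ones and did not overlap the DMSO libraries (log2FC 0.36, SE 0.110, adjusted p = 0.0647). PLK1, the kinase that loosens cohesin on chromosome arms, was at 103, 103 and 102 CPM and 90.7, 90.6 and 89.4 CPM in SK-OV3 (log2FC -0.19, SE 0.0519, adjusted p = 0.0237). In PA-1 it was at 85.9, 87.2 and 98.6 CPM and 97.9, 107 and 100.5 CPM (log2FC 0.17, SE 0.0662, adjusted p = 0.129), which overlap. PTTG1, the securin that holds separase inactive, fell in SK-OV3 (log2FC -0.26), and its log2FC in PA-1 was -0.23 (adjusted p = 0.0836). The called regulators thus held both separase and its inhibitor.

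The response was compared between the lines by the interaction of line and treatment in 1 fit of all 12 libraries. The test called 13 members, each with a lower log2FC in SK-OV3 than in PA-1. Among all 16830 genes tested, 7.77% had a lower and 6.7% a higher response in SK-OV3. The log2 differences (SK-OV3 minus PA-1) were -1.03 (SE 0.201, adjusted p = 0.00311) for CASC5, -0.79 (SE 0.202, adjusted p = 0.0158) for ESPL1, -0.76 (SE 0.136, adjusted p = 0.00168) for KNTC1 and -0.71 (SE 0.144, adjusted p = 0.00422) for SMC1A. For CDC20 the difference was -0.54 (SE 0.0907, adjusted p = 0.00102) and for ZWINT -0.49 (SE 0.0900, adjusted p = 0.00192). Those of PMF1, CENPF, PLK1, CENPO, BUB1B, CDCA8 and BIRC5 lay between -0.47 and -0.31, with adjusted p between 0.00778 and 0.0404. All 13 had fallen in SK-OV3 and none was called in PA-1, where 8 of them (CASC5, ESPL1, SMC1A, PLK1, KNTC1, CDC20, CDCA8 and PMF1) had a log2FC above 0. A higher response in SK-OV3 was called for 0 members by edgeR's test as used above, by DESeq2 or by limma-voom. At an unadjusted p under 0.05, 16 members were lower and 2 higher, beside 2480 and 2271 of all 16830 genes. For NDC80, NUF2, SKA2, TTK, CENPC and CENPQ, which fell in PA-1 and were not called in SK-OV3, the differences were between 0.049 and 0.21 and none was called, so a difference of their response between the lines was not shown.

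Of these 13 calls, 3 held under every setting tried, those of CASC5, KNTC1 and SMC1A. Leaving out PA-1 DMSO replicate 2, PA-1 BAY-850 replicate 2 or SK-OV3 DMSO replicate 2 left 8 interaction calls each. Without SK-OV3 BAY-850 replicate 3, the library with few genes, edgeR called 13 members lower and 1 higher, with CENPA among the calls. Scaling by library size alone left 7 and turned the split of all interaction calls from 1307 lower and 1128 higher to 773 and 1062.

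**Figure D4:**
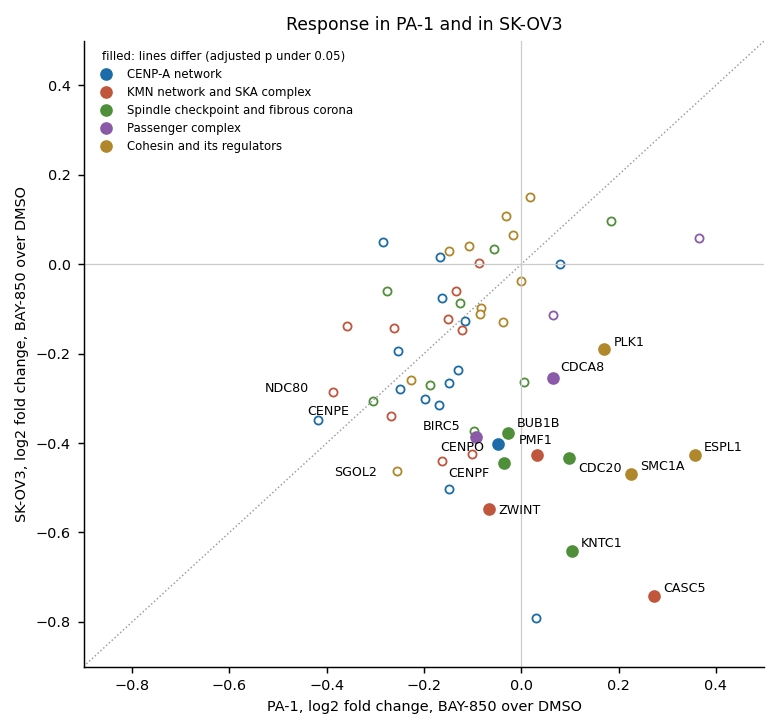
Log2 fold change (BAY-850 over DMSO) of the 58 genes in SK-OV3 against that in PA-1, coloured by group, with the dotted line marking equal responses and filled points the 13 genes whose response differed between the lines at an adjusted p under 0.05. All 13 filled points lie below the dotted line, with CASC5 and KNTC1 lowest, and CENPE lies close to the line.

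The members called in PA-1 were poor in GC. GC content was taken from the longest annotated transcript of each gene. Its median was 41.5% for the 58 members, against 48.9% for the coding genes tested in PA-1. The 7 members called in PA-1 had 33.9% to 40.8%. In PA-1 the median log2FC of coding genes was -0.13 in the lowest decile of GC content and 0.12 in the highest, while in SK-OV3 these were -0.020 and 0.079. With each library's trend on GC content removed by loess, NDC80 was the only member called in PA-1 (log2FC -0.28, adjusted p = 0.0482), and the members' median was -0.029. The split of all PA-1 calls went from 378 lower and 707 higher to 117 and 483, and with scaling by library size alone it was 231 and 235. In SK-OV3 the same correction gave 26 member calls, all lower, with a median of -0.25. Of all 15348 genes, 11.85% were then called lower and 10.67% higher. The 26 calls held the 21 genes named above and CENPH, CENPK, NDC80, ZW10 and ZWILCH. The interaction kept 13 member calls in number under the correction, with BIRC5 at an adjusted p of 0.0714 and ZWILCH at 0.0137. All 16830 genes then gave 1281 lower and 1216 higher interaction calls.

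The PA-1 calls also changed when 1 library was left out. Each such fit has fewer replicates, and the part of this was not tested. There were 9 member calls without PA-1 DMSO replicate 3, 6 without PA-1 BAY-850 replicate 1 and 10 without PA-1 BAY-850 replicate 3. Without PA-1 DMSO replicate 2 the only call was NDC80, without PA-1 BAY-850 replicate 2 it was CENPE, and without PA-1 DMSO replicate 1 there were 4 calls. ESPL1 and PLK1 were called higher without PA-1 DMSO replicate 3, as were CASC5, INCENP and SMC1A without PA-1 BAY-850 replicate 3. In SK-OV3 the count stayed between 14 and 28 when 1 library was left out, and no member was called higher. When the GC trend was removed together with the centre of each library, so that its TMM centre was not kept (an alternative chosen after seeing the data), 13 members were called in SK-OV3, and the split of all SK-OV3 calls went from 1468 lower and 1662 higher to 818 and 1838.

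**Figure D5:**
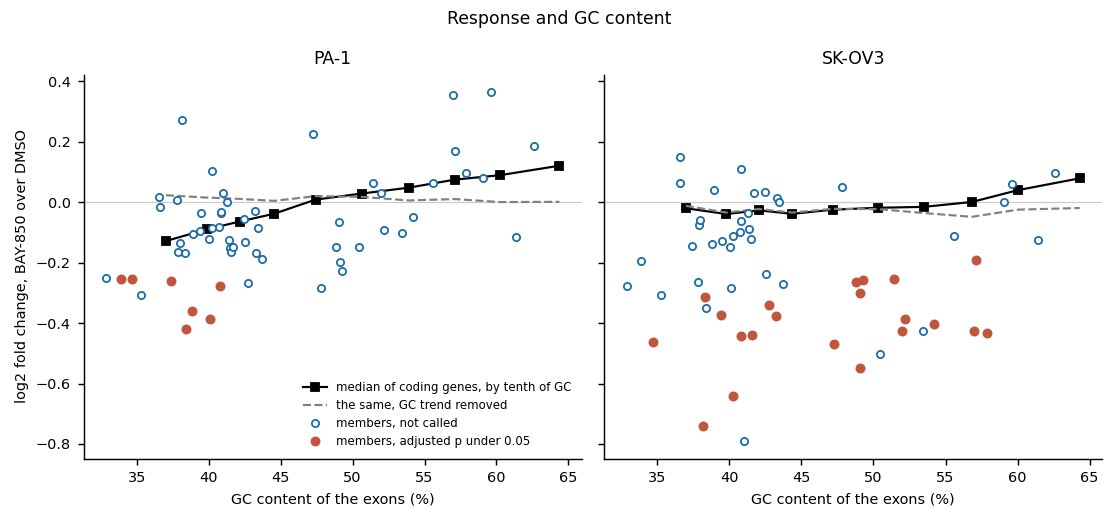
Log2 fold change (BAY-850 over DMSO) against the GC content of the exons of each gene's longest transcript in PA-1 (left) and SK-OV3 (right). Members are circles (filled at an adjusted p under 0.05), and black squares are the median of coding genes in each decile of GC content. A dashed line shows the same after the GC trend was removed. In PA-1 the filled circles lie at 33.9% to 40.8% GC, where the black squares are below 0, and in SK-OV3 they spread from 34.7% to 57.9%.

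Other genes of chromosome segregation were counted by the same test. Condensin, which compacts mitotic chromosomes, had 6 of 8 genes lower in SK-OV3, with a median log2FC of -0.30, and 0 called in PA-1 by edgeR or limma-voom (3 at an unadjusted p under 0.05, 1 by DESeq2). Its smallest p in SK-OV3 was that of SMC2, with a log2FC of -0.66 (SE 0.0974, adjusted p = 0.000677). The 16 genes of the anaphase-promoting complex and its partners, which CDC20 activates, had 2 lower in each line and a median log2FC of -0.024 (PA-1) and -0.017 (SK-OV3). The smallest p was that of ANAPC13 in PA-1, at -0.31 (SE 0.0761, adjusted p = 0.0244), and of ANAPC5 in SK-OV3, at -0.31 (SE 0.0588, adjusted p = 0.00354). Of 20 other centromere, kinetochore and cohesin genes, 5 were lower and 2 higher in SK-OV3, led by CDCA5 (sororin, which keeps cohesin closed) at -0.41 (SE 0.0713, adjusted p = 0.00197). In PA-1, 0 of these 20 were called by edgeR, DESeq2 or limma-voom, with 3 at an unadjusted p under 0.05. No gene of these lists was called in both lines.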

How the data were processed

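RNA-seq was carried out on 12 libraries, 3 for each of 4 groups, taken as GEO's labels give them. The 58 genes and the further gene lists were chosen with earlier results of these data known. The deposited values are expected counts per gene symbol, which the authors made with RSEM 1.2.15 on Bowtie2 2.1.0 alignments to hg38, as named in the submitters' processing notes. The annotation and the strand setting are not given in the sources used here. The labels and the paper describe oligo-dT selection with a strand-marking kit, while the design text speaks of depletion of ribosomal RNA. Every column matched the labels of 1 library. The labels do not say that replicates were separate cultures, so p-values measure the spread between these libraries.

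Expected counts were rounded to whole numbers. Genes passing filterByExpr were tested with edgeR 4.0.16 (R 4.3.3; TMM scaling, quasi-likelihood test, two-sided) within each line, and the interaction of line and treatment and the DMSO comparison were fitted over all 12 libraries. P-values were adjusted by Benjamini-Hochberg over all genes tested, and genes with an adjusted p under 0.05 were called. Each SE was derived from the test, as the absolute log2 value divided by the square root of its F statistic. CPM values use TMM library sizes. The scripts were tested on simulated counts, with changes of 0.5 or 1 log2 put into 200 genes. Of the changes of 0.5, 72 of 98 were recovered in PA-1, 52 of 98 in SK-OV3 and 29 of 98 for the interaction. Of the changes of 1, 81 of 100, 69 of 97 and 63 of 98 were recovered. False calls were 21, 7 and 6, a larger share of the calls in PA-1 than in SK-OV3 or for the interaction. With a GC trend put into simulated PA-1 counts, false calls were 2903 without the GC correction and 12 with it. That trend was not matched in size to the data. Replicates of a group differed by more than sampling noise.

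Alternatives were DESeq2 1.42.0, limma-voom (limma 3.58.1), other scalings, a block for the replicate number, no filter or a minimum of 10 counts per library, offsets from a loess trend on GC content (span 0.5), 1 fit of all 12 libraries, and leaving out each library. Removing each library's whole loess fit, its centre included, in place of the trend alone was added after seeing the data. Of 26475 symbols, 23900 were matched to the GRCh38 annotation and 704 more by an older symbol. Values in every library are given for CENPE, for members called in both lines or for the interaction, and for the called member with the smallest p in each complex and line. Of the further lists, only the called gene with the smallest p in a line is named. Same-numbered libraries did not deviate together (r between -0.0531 and 0.0501 over genes), so the numbers were not treated as pairs. Another list of cell type markers is not reported here.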

Additional observations from a re-analysis of the deposited data

Results flagged for a closer look

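The responses of 13 genes to BAY-850 differed between SK-OV3 and PA-1 by the interaction test in edgeR, at an adjusted p under 0.05. The log2 differences, SK-OV3 minus PA-1, were -1.03 for CASC5, -0.79 for ESPL1, -0.76 for KNTC1, -0.71 for SMC1A, -0.54 for CDC20, -0.49 for ZWINT and -0.47 for PMF1. Those of CENPF, PLK1, CENPO, BUB1B, CDCA8 and BIRC5 were -0.42, -0.37, -0.36, -0.36, -0.33 and -0.31. With 3 libraries per group, no single library was tested for standing apart.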

How the results depend on the processing

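The calls in PA-1 depended on the setting, and 0 of the 7 members called there were called under every alternative, against 12 of 21 in SK-OV3 and 3 of 13 for the interaction. No called member changed direction. In PA-1, 7 members and 1085 genes were called. Scaling by library size alone gave 466 genes and a median log2 fold change of the members of -0.131, in place of -0.099. Removing the GC trend gave 1 member, 600 genes and a median of -0.029, and removing the library centre with it gave 2 members, 539 genes and -0.052. DESeq2 called 14 members and 1674 genes, and 1 fit of all 12 libraries called 4 and 683. Without a filter on low counts 15 members were called, 12 lower and 3 higher, among 1626 genes. With at least 10 counts in every library 12 members were called, 10 lower and 2 higher, among 1286 genes. The cause of these shifts was not tested.

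In SK-OV3, removing the GC trend and the library centre gave 13 members in place of 21 and a median of -0.156 in place of -0.246. For the interaction, 13 members were called, with 7 under scaling by library size alone and 5 with the GC trend and the library centre removed, of which 4 were lower and CENPA was higher. That setting moved the median of all genes for the interaction from -0.020 to 0.094, and its split of calls to 585 lower and 1319 higher.

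With 1 library left out, between 340 and 1228 genes and between 1 and 10 members were called in PA-1, with the members' median between -0.121 and -0.078. Without PA-1 DMSO replicate 1 there were 489 genes and 4 members, without PA-1 DMSO replicate 2 there were 340 genes and 1 member, and without PA-1 BAY-850 replicate 2 there were 344 genes and 1 member. In SK-OV3, between 1781 and 3902 genes and between 14 and 28 members were called, with a median between -0.232 and -0.200, and the lowest counts of genes were 1781 without DMSO replicate 2 and 1983 without DMSO replicate 3. The interaction gave between 8 and 14 members and the DMSO comparison between 45 and 48. All of these interaction calls were lower, except for 1 higher without SK-OV3 BAY-850 replicate 3.

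The replicate block called 6 members (PA-1) and 21 (SK-OV3), with CENPE called in both lines in edgeR (adjusted p = 0.0271 and 0.0440, and 0.0406 in SK-OV3 with the GC trend removed too), 12 members for the interaction, and 931 and 2716 genes. The replicate block with the GC trend removed gave 1 member and 494 genes in PA-1, with a median of -0.028 and a split of 86 lower and 408 higher. The replicate numbers do not pair libraries of different lines, so the DMSO comparison was not fitted with a block. Over the single genes named, 685 values kept their side of the threshold, 144 fell short of it and 10 newly passed it, with 0 reversed. All 58 members passed the filter on low counts, so none was left untested for depth.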
